A study of Mus musculus with 12 samples.

Results

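Transcripts of 5 STAT transcription factors (Stat3, Stat4, Stat5a, Stat5b and Stat6) and of 4 feedback inhibitors of cytokine signalling (Cish, Socs1, Socs2 and Socs3) were followed in bulk RNA sequencing of mouse regulatory T cells (Treg cells). The 9 genes were chosen by name from a table of 55413 genes, and all 9 passed the filter on low counts. STAT proteins wait in the cytoplasm, are phosphorylated by JAK kinases at a cytokine receptor, pair up and enter the nucleus as transcription factors. Among the genes they switch on are those of the CIS and SOCS proteins, which bind the receptor or the kinase and damp the same signal. In Treg cells the chain from interleukin-2 through its receptor to STAT5 sustains Foxp3, the transcription factor that defines the lineage.

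The 12 libraries formed 3 groups. In the tumor groups, TCRbd-/- hosts, which make no T cells of their own but keep B cells and myeloid cells, had received Treg cells of thymic origin (tTreg) from the spleen and lymph nodes of CD45.1 Foxp3YFP-cre donors. CD45.2 Foxp3YFP-cre donors supplied the Foxp3- conventional CD4+ cells and the CD8+ cells given with them, at 1 tTreg to 10 CD4+ to 8 CD8+ cells. Hepa1-6 mouse hepatoma cells were inoculated after 3 days, and the tumors were taken for sorting of Treg cells on day 18. Tumor tTreg (n = 5) and tumor pTreg, Treg cells that arose outside the thymus (n = 3), were sequenced separately. Lymph nodes of mice without tumors gave the control, all Treg cells together (LN Treg, n = 4). The genotype label of all 3 groups names Foxp3YFP-cre, a YFP-Cre fusion made from the Foxp3 locus, and TCRbd-/-. For LN Treg no transfer day or cell ratio is given, so whether its cells were transferred or native is not known here. Age, the number of mice behind a library and any pooling are not given in the sources used here, so p-values measure the spread between libraries, which may be technical.

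The libraries held 14.57 to 18.51 M counts each, but very different amounts of T cell RNA. Together, 18 pan-T genes (among them chains of the T cell receptor complex, the surface proteins Cd2 and Cd28 and the kinases Lck and Zap70) summed to 6805 ± 69.9, 1418 ± 15.1 and 139.7 ± 3.01 CPM (mean ± SD) in LN Treg, tumor pTreg and tumor tTreg. CPM is the count of a gene scaled to the total count of its library. Foxp3 itself read 441 ± 11.1, 20.3 ± 0.583 and 8.74 ± 0.478 CPM, and the 6 Treg markers were detected in every group. Per 100 counts of the pan-T genes, Foxp3 averaged 6.48, 1.43 and 6.25 in LN Treg, tumor pTreg and tumor tTreg. On that scale tumor pTreg was thus the lowest in Foxp3. Macrophage and monocyte markers (12 genes) summed to 96.6 to 99.3 CPM in LN Treg, 5685 to 5741 in tumor pTreg and 5809 to 6151 in tumor tTreg. Markers of Hepa1-6 cells or hepatocytes (10 genes) summed to 7.44 to 9.53, 5386 to 5755 and 7956 to 8306 CPM, and 1 of the 10 had no counts in either tumor group. The CD8 T cell markers Cd8a and Cd8b1 summed to 21.0 ± 2.10, 32.8 ± 1.83 and 1.10 ± 0.152 CPM in LN Treg, tumor pTreg and tumor tTreg, or 0.309, 2.31 and 0.792 per 100 pan-T counts. Fibroblast markers (7 genes) summed to 1.65 to 3.36, 131 to 153 and 660 to 783 CPM in the same order. These cell types also transcribe several STAT and SOCS genes, and their part in the levels below was not tested. In bulk libraries, fewer cells of a type and less RNA per cell cannot be told apart. Each gene is therefore given both in CPM and per 100 pan-T counts, that is, relative to the T cell transcripts of the same library, and the second scale rests on 2484 to 2606 pan-T counts per tumor tTreg library.

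By CPM, 8 of the 9 genes stood highest in LN Treg, and Socs3 alone stood highest in tumor tTreg. Between the tumor groups, Stat3, Stat4, Stat5a, Stat5b, Stat6, Cish and Socs1 were higher in every tumor pTreg library than in any tumor tTreg library, Socs3 was lower in every one, and Socs2 overlapped. No overlap in either direction was seen for 48.5% of all 15705 genes tested. The order of the tumor groups turned around per 100 pan-T counts, where all 9 genes were lower in every tumor pTreg library than in any tumor tTreg library. On that scale 95.1% of all genes were also lower without overlap. Against LN Treg, all 9 genes were without overlap by CPM in each tumor group, where 85.9% of all genes were in tumor pTreg and 85.2% in tumor tTreg. Per 100 pan-T counts 8 of the 9 were higher without overlap in tumor pTreg than in LN Treg (90.7% of all genes), Socs1 being the exception, and all 9 in tumor tTreg (95.5% of all genes). Socs3 was the 1 gene of the 9 whose order of the 3 groups was the same on both scales.

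**Figure D1:**
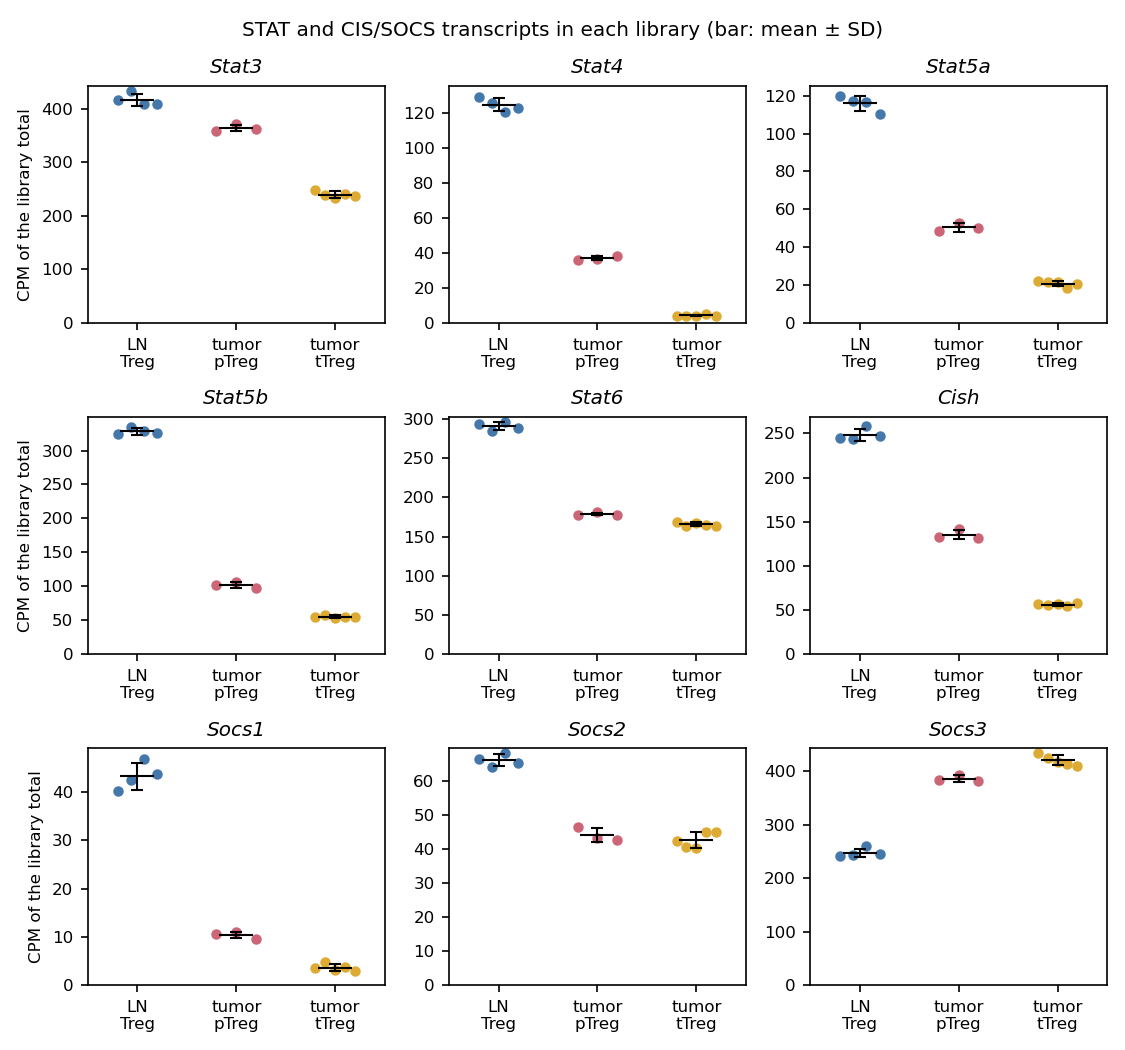
Level of each gene in CPM of the library total (vertical axes, each starting at 0) in the 4 LN Treg, 3 tumor pTreg and 5 tumor tTreg libraries. Points are libraries and bars are mean ± SD. In 8 panels LN Treg is highest, and in the Socs3 panel it is lowest.

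**Figure D2:**
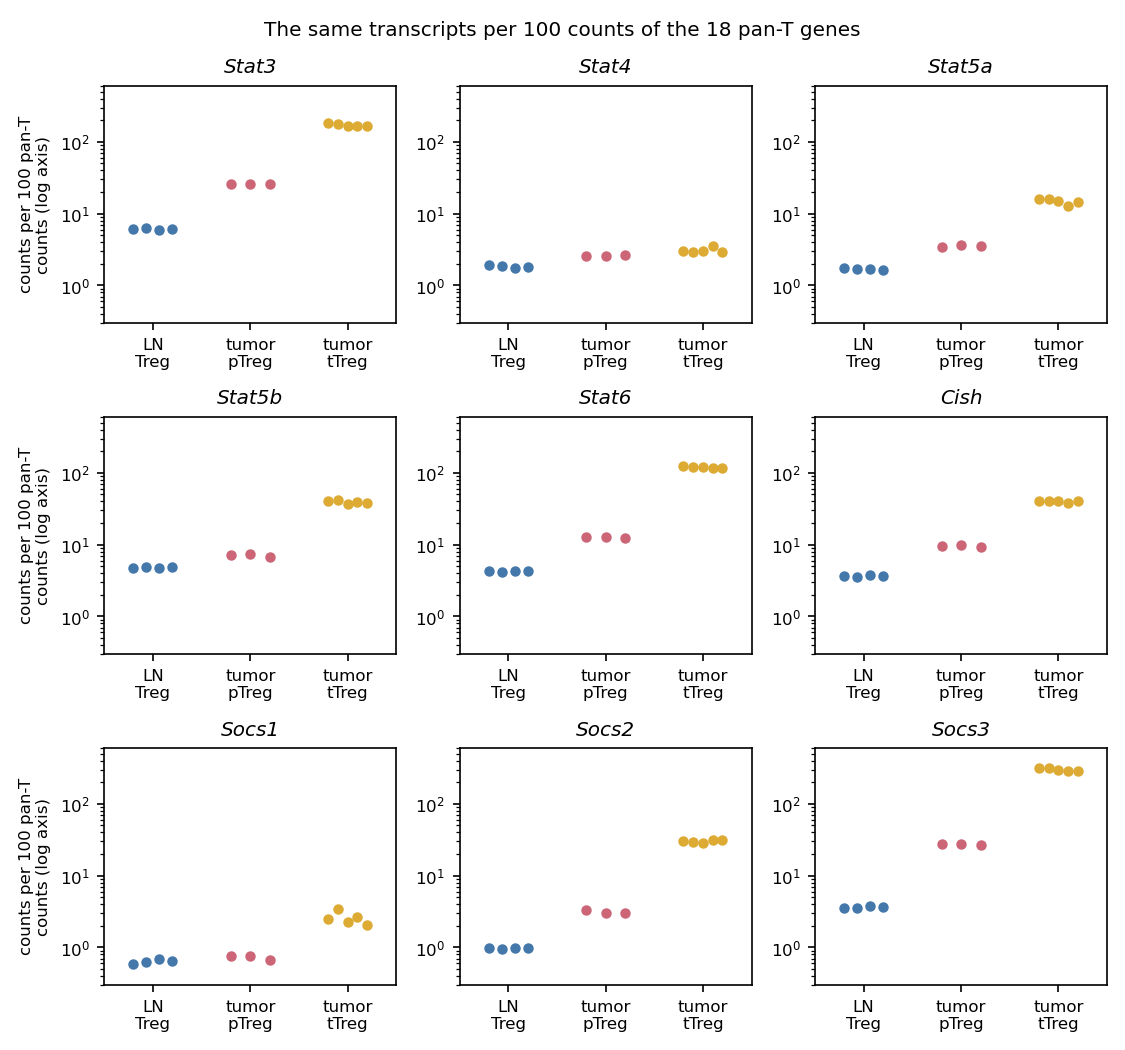
The same libraries with each gene as counts per 100 pan-T counts on a log axis, shared by all panels. Points are libraries. Tumor tTreg lies highest in every panel, from 2.60 on average for Socs1 to 301 for Socs3.

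Stat5a and Stat5b encode the twin factors that carry the interleukin-2 signal. They lie side by side on chromosome 11 (GRCm38), Stat5b at 100780731-100850724 on the minus strand and Stat5a at 100859351-100885169 on the plus strand, 8.63 kb apart, and both are protein-coding. The 4 LN Treg libraries held Stat5a at 120, 117, 117 and 110 CPM. The 3 tumor pTreg libraries held it at 48.5, 52.8 and 50.01 CPM. The 5 tumor tTreg libraries held it at 22.1, 21.7, 21.4, 18.3 and 20.7 CPM. The groups thus fell into 3 separate steps, LN Treg above tumor pTreg above tumor tTreg. With TMM scaling of whole libraries, Stat5a was 2.43-fold higher in tumor pTreg than in tumor tTreg (log2 1.28, SE 0.05, edgeR adjusted p = 1.20e-18). Against LN Treg it was lower in both tumor groups, at log2 -1.10 and -2.38 (tumor pTreg, then tumor tTreg) (edgeR adjusted p = 1.12e-19 and 1.82e-28). It ran the other way per 100 pan-T counts, at 1.64 to 1.77 in LN Treg, 3.46 to 3.69 in tumor pTreg and 12.8 to 16.1 in tumor tTreg.

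Stat5b was the more abundant twin. Its levels were 324, 335, 329 and 326 CPM in LN Treg, 102, 106 and 97.2 CPM in tumor pTreg, and 54.9, 57.8, 52.5, 55.3 and 54.1 CPM in tumor tTreg. No group overlapped another. Stat5b was 1.86-fold higher in tumor pTreg than in tumor tTreg (log2 0.90, SE 0.03, edgeR adjusted p = 1.11e-18). Both tumor groups were lower than LN Treg, at log2 -1.59 for tumor pTreg and -2.48 for tumor tTreg (edgeR adjusted p = 1.23e-26 and 1.19e-32). Its means per 100 pan-T counts were 4.83, 7.17 and 39.3 in LN Treg, tumor pTreg and tumor tTreg, again without overlap. Within a library the count ratio of Stat5a to Stat5b, which does not depend on the scaling, was 0.353 ± 0.013, 0.496 ± 0.020 and 0.380 ± 0.030 in LN Treg, tumor pTreg and tumor tTreg. By counts the ratio was higher in every tumor pTreg library (0.475 to 0.514) than in any other (0.331 to 0.407). The same ratio in FPKM, 0.787 to 0.907 in tumor pTreg, overlapped that of tumor tTreg at 0.492 to 0.812. The twins share 3.44% of the 100-base words of Stat5a transcripts and 4.79% of those of Stat5b, so a small part of their reads could be split between them.

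Stat3, which carries signals of interleukin-6, interleukin-10, interleukin-21 and related cytokines, occupies chromosome 11 at 100885098-100939540 on the minus strand, and its end overlaps that of Stat5a by 72 bases on the opposite strand. Its levels were 417, 432, 409 and 409 CPM in LN Treg, 359, 371 and 363 CPM in tumor pTreg, and 248, 239, 232, 241 and 237 CPM in tumor tTreg. The step between LN Treg and tumor pTreg was small, and the lowest value of the first stood above the highest of the second. Stat3 was 1.53-fold higher in tumor pTreg than in tumor tTreg (log2 0.61, SE 0.03, edgeR adjusted p = 4.38e-17). Against LN Treg it was lower by log2 -0.09 (SE 0.03) in tumor pTreg (edgeR adjusted p = 0.00517) and by log2 -0.70 in tumor tTreg (1.45e-20). The first of these turned to 0.0758 when limma was run on log2(FPKM + 1) (adjusted p = 0.0897), and Stat3 FPKM overlapped between the groups at 116 to 125 in LN Treg and 123 to 135 in tumor pTreg. Stat3 per 100 pan-T counts averaged 6.12, 25.7 and 172 in LN Treg, tumor pTreg and tumor tTreg.

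Stat4, the factor downstream of interleukin-12 that drives interferon gamma in T cells, spans chromosome 1 at 51987148-52107189 on the plus strand. Its levels were 129, 126, 120 and 122 CPM in LN Treg. They were 36.2, 36.6 and 38.4 CPM in tumor pTreg, and 4.10, 3.93, 4.27, 5.09 and 4.197 CPM in tumor tTreg. Of the 9 genes, Stat4 had the largest fold between the tumor groups, 8.61-fold higher in tumor pTreg (log2 3.11, SE 0.07, edgeR adjusted p = 4.94e-25). Against LN Treg the differences were log2 -1.64 for tumor pTreg and -4.75 for tumor tTreg (edgeR adjusted p = 3.00e-24 and 1.56e-33), the second being 26.9-fold. The 18 pan-T genes were themselves higher in tumor pTreg than in tumor tTreg, by log2 2.24 to 4.07, and Stat4 lay inside that range. Stat4 moved least of the 9 genes between the tumor groups per 100 pan-T counts, with means of 1.83, 2.61 and 3.09 in LN Treg, tumor pTreg and tumor tTreg. The 3 groups did not overlap on that scale either, and the difference between the tumor groups was log2 -0.24 (SE 0.08, edgeR with pan-T scaling, adjusted p = 0.00516). Of the 100-base words of Stat4 transcripts 18.0% also occur in Gm28177, an annotated transcript inside the gene that held at most 9 counts in a library.

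Stat6 transmits interleukin-4 and interleukin-13 signals in T cells and macrophages alike, and lies on chromosome 10 at 127642986-127660957 on the plus strand. Its levels were 294, 285, 296 and 288 CPM in LN Treg, 178, 181 and 178 CPM in tumor pTreg, and 169, 163, 167, 164 and 164 CPM in tumor tTreg. The tumor groups lay close together and still did not overlap. Stat6 was 1.09-fold higher in tumor pTreg than in tumor tTreg (log2 0.12, SE 0.03, edgeR adjusted p = 5.21e-04). It was lower than in LN Treg by log2 -0.60 for tumor pTreg and -0.72 for tumor tTreg (edgeR adjusted p = 1.18e-17 and 2.81e-21). Per 100 pan-T counts it averaged 4.27, 12.6 and 119 in LN Treg, tumor pTreg and tumor tTreg, a steeper climb than that of Stat4 or Stat5b.

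Cish encodes CIS, an SH2 protein induced by STAT5 that binds the interleukin-2 receptor complex, and lies on chromosome 9 at 107296026-107302784 on the plus strand. Promoter windows of 300 bases around RefSeq transcription starts (GRCm38.p6) were found for 8 of the 9 genes, 11 windows in all. STAT dimers favour the letters TTCNNNGAA, where N is any base, and these were searched together with the wider form that has 4 free bases between TTC and GAA. Both read alike on the 2 strands in their fixed letters. The first occurred in the windows of Cish and Socs3 alone among the 8 genes, and the second in none. For reference, 8.30% of 32851 windows of all genes held TTCNNNGAA, 0.457% held it 2 or more times, and 6.95% held the wider form. The Cish window is shown because it held a pair of matches, the first beginning at the start base itself (position 0) and the other at position 11. The stretch below covers chr9:107296489-107296688 on the plus strand, written 5′ to 3′ with the matches in capitals; it lies inside the gene span given above.
Cish promoter stretch: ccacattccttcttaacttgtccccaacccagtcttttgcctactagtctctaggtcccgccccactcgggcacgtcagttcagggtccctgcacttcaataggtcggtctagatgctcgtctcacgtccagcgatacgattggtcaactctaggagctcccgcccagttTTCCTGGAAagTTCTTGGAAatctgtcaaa
A match is a string of letters, and binding was not measured.

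Cish levels were 244, 243, 258 and 247 CPM in LN Treg, 133, 142 and 132 CPM in tumor pTreg, and 56.6, 55.6, 56.6, 54.3 and 57.4 CPM in tumor tTreg. All 3 groups were apart, in the order seen for Stat5a and Stat5b. Cish was 2.42-fold higher in tumor pTreg than in tumor tTreg (log2 1.28, SE 0.03, edgeR adjusted p = 8.41e-23). Relative to LN Treg it stood at log2 -0.77 for tumor pTreg and -2.05 for tumor tTreg (edgeR adjusted p = 4.23e-19 and 1.94e-30). The order was the reverse per 100 pan-T counts, with means of 3.65, 9.54 and 40.2 in LN Treg, tumor pTreg and tumor tTreg.

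Socs1, an inhibitor that blocks JAK kinases directly, is a short gene on chromosome 16 at 10782240-10785536 on the minus strand and was the least abundant of the 9. Its levels were 40.2, 42.5, 47.0 and 43.7 CPM in LN Treg, 10.7, 10.9 and 9.57 CPM in tumor pTreg, and 3.45, 4.70, 3.19, 3.83 and 2.93 CPM in tumor tTreg. The groups did not overlap by CPM. Socs1 was 2.88-fold higher in tumor pTreg than in tumor tTreg (log2 1.53, SE 0.11, edgeR adjusted p = 2.31e-12). The differences from LN Treg were log2 -1.96 for tumor pTreg and -3.48 for tumor tTreg (edgeR adjusted p = 1.79e-19 and 1.52e-25). On the pan-T scale LN Treg, at 0.594 to 0.682, overlapped tumor pTreg, at 0.673 to 0.763, and both lay under tumor tTreg, at 2.06 to 3.46. The edgeR difference between the first 2 groups under pan-T scaling was log2 0.20 (SE 0.09, adjusted p = 0.0284). It did not pass the test without LN Treg replicate 1 (edgeR adjusted p = 0.0722), tumor pTreg replicate 1 (0.112) or tumor pTreg replicate 2 (0.116).

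Socs2, best known for restraining growth hormone signalling through STAT5, lies on chromosome 10 at 95385362-95417180 on the minus strand. Its levels were 66.4, 64.1, 68.2 and 65.2 CPM in LN Treg, 46.4, 43.1 and 42.6 CPM in tumor pTreg, and 42.1, 40.6, 40.1, 45.02 and 44.8 CPM in tumor tTreg. The tumor groups overlapped, and both lay under LN Treg. The difference between the tumor groups was log2 0.06 (SE 0.05) and did not pass the test (edgeR adjusted p = 0.300). Against LN Treg, Socs2 was lower by log2 -0.48 for tumor pTreg and -0.54 for tumor tTreg (edgeR adjusted p = 1.54e-10 and 5.06e-13). Per 100 pan-T counts it averaged 0.969, 3.11 and 30.4 in LN Treg, tumor pTreg and tumor tTreg, and there the tumor groups were far apart (log2 -3.29, edgeR with pan-T scaling, adjusted p = 2.02e-35).

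Socs3 encodes an inhibitor that binds gp130, the shared receptor chain of the interleukin-6 family, and is itself induced by STAT3. It lies on chromosome 11 at 117966079-117970047 on the minus strand. Its promoter window held 1 match to TTCNNNGAA, at position -154 from the RefSeq start. The stretch shown covers chr11:117969337-117969536 on the minus strand (GRCm38.p6), 5′ to 3′ with the match in capitals. Like that of Cish, it lies inside the gene span given above.
Socs3 promoter stretch: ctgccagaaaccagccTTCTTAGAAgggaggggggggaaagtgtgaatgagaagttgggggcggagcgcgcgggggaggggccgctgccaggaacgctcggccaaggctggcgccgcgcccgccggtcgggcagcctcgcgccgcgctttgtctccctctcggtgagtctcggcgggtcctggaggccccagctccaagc
This gene ran opposite to the other 8 by CPM. Its levels were 241, 243, 259 and 245 CPM in LN Treg, 383, 393 and 381 CPM in tumor pTreg, and 434, 425, 417, 414 and 410 CPM in tumor tTreg. The 3 groups stood in ascending order with no overlap. Socs3 was higher than in LN Treg by log2 0.75 (1.68-fold) in tumor pTreg and by log2 0.86 (1.82-fold) in tumor tTreg (edgeR adjusted p = 2.03e-19 and 2.63e-22). Between the tumor groups the difference was small, log2 -0.12 (SE 0.03, edgeR adjusted p = 0.00114), with tumor pTreg the lower. Per 100 pan-T counts it averaged 3.63, 27.2 and 301 in LN Treg, tumor pTreg and tumor tTreg. The summed macrophage, hepatoma and fibroblast markers given above ran in the same order over the groups. The part of these cells in the Socs3 level was not tested.

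With TMM scaling, 7 of the 9 genes were called higher in tumor pTreg than in tumor tTreg, 1 lower (Socs3) and 1 not called (Socs2), where 52.1% of 15705 genes were called (26.8% higher and 25.3% lower). The median of the 9 was log2 0.90, that of all genes -0.01. At 2-fold or more, Stat4, Stat5a, Cish and Socs1 were called higher, a size reached by 6.56% of all genes. In tumor pTreg against LN Treg, 8 were called lower and 1 higher, where 87.5% of genes were called (47.6% higher and 39.8% lower), with a median of log2 -0.77 for the 9 and 0.12 for all genes. In tumor tTreg against LN Treg the counts were again 8 lower and 1 higher, where 90.3% of genes were called (48.1% higher and 42.3% lower), with medians of -2.05 and 0.10. With so many genes called, passing the test sets none of the 9 apart. The last 2 comparisons share the LN Treg libraries, so their like counts are not separate results.

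Scaling to the pan-T counts moved the median of all genes by -3.35, 2.15 and 5.50 (log2) in these 3 comparisons. It turned the calls to 9 lower of 9, 9 higher of 9 and 9 higher of 9, where 97.1% of all genes were called lower, 91.3% higher and 96.8% higher. For tumor pTreg against LN Treg, 7482 genes were called higher and 6253 lower with TMM, while 14343 were called higher and 651 lower with pan-T scaling. The corresponding splits between the tumor groups were 4204 and 3980 with TMM and 86 and 15246 with pan-T scaling. For tumor tTreg against LN Treg they were 7550 and 6637, and then 15199 and 156. Set beside the pan-T scaled median of all genes between the tumor groups, log2 -3.36, the 9 genes ran from -3.47 for Socs3 and -3.29 for Socs2 to -0.24 for Stat4. The order of the 9 among themselves was the same as with TMM, and only the zero line had moved. The pan-T genes with TMM spanned log2 -3.27 to -1.13 in tumor pTreg against LN Treg, a range that held Stat4, Stat5b and Socs1 and left the other 6 genes above it. In tumor tTreg against LN Treg the pan-T genes spanned -6.67 to -4.88, and all 9 genes lay above that range, Stat4 nearest at -4.75.

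**Figure D3:**
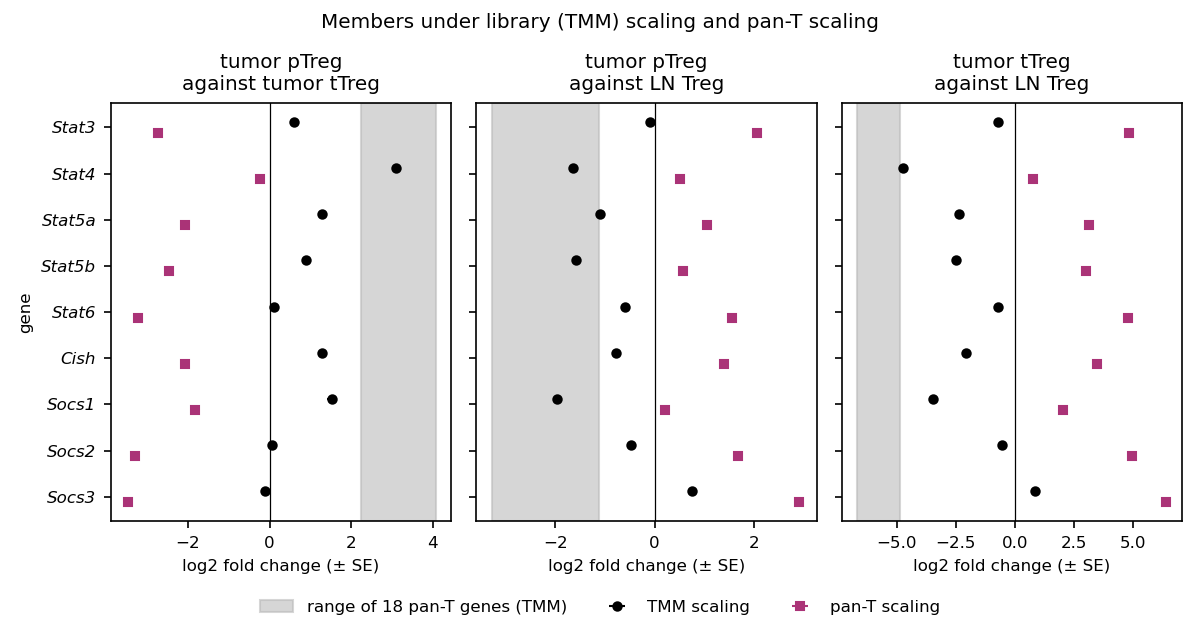
Log2 fold change (± SE, mostly narrower than the symbols) of each gene in the 3 comparisons. Black circles are TMM scaling of whole libraries, purple squares are scaling to the summed counts of 18 pan-T genes, and the grey band is the range of those 18 genes with TMM. Between the tumor groups, Stat4 (3.11) is the 1 gene inside the band with TMM, and all 9 squares lie left of 0.

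Levels were compared between genes in FPKM, which is scaled to transcript length. In LN Treg the order was Stat3 (122 FPKM), Socs3 (114), Stat6 (102), Cish (83.9), Stat5b (71.3), Stat4 (53.5), Socs2 (39.3), Stat5a (39.2) and Socs1 (17.3). The libraries of Stat3 and Socs3 overlapped, as did those of Socs2 and Stat5a, and the other neighbours were apart. In tumor pTreg the order was Socs3 (172), Stat3 (128), Stat6 (60.0), Cish (45.2), Socs2 (29.02), Stat5b (22.1), Stat5a (19.0), Stat4 (18.7) and Socs1 (4.12), with overlap of Stat5a and Stat4 alone. In tumor tTreg it was Socs3 (187), Stat3 (80.8), Stat6 (55.1), Socs2 (27.5), Cish (19.4), Stat5b (11.7), Stat5a (7.29), Stat4 (1.98) and Socs1 (1.44), with overlap of Stat4 and Socs1. The top of the order thus changed from Stat3 to Socs3 and Stat4 dropped from the sixth place to the eighth, while Socs1 was last in every group.

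Shares within a library do not depend on how libraries are scaled. Stat3 made up 31.4 ± 0.583% of the summed FPKM of the 5 STAT genes in LN Treg and more in the tumor groups, 51.7 ± 0.726% in tumor pTreg and 51.5 ± 0.646% in tumor tTreg, which overlapped each other. Stat4 made up 13.8 ± 0.338%, 7.55 ± 0.236% and 1.27 ± 0.172%. Stat5b made up 18.4%, 8.88% and 7.46%, and Stat5a 10.1%, 7.64% and 4.64%. Stat6 held 26.3%, 24.2% and 35.1% in LN Treg, tumor pTreg and tumor tTreg. With shares of CPM in place of FPKM, Stat6 was lower in LN Treg (22.8%, 21.99 to 23.3) than in tumor pTreg (24.5%, 24.2 to 24.6) without overlap, the reverse of the order in FPKM. In tumor tTreg the STAT transcripts were thus largely Stat3 and Stat6. Of the summed FPKM of the 4 inhibitors, Socs3 held 44.7%, 68.7% and 79.5% in LN Treg, tumor pTreg and tumor tTreg. Cish went the other way, from 33.0 ± 0.523% through 18.0 ± 0.260% to 8.24 ± 0.233%, and Socs1 from 6.79% through 1.64% to 0.612%. Socs2 held 15.5%, 11.6% and 11.7%.

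The 2 pools also differed in their totals. Summed FPKM of the STAT genes was 387 ± 6.10, 248 ± 7.89 and 157 ± 3.46 in LN Treg, tumor pTreg and tumor tTreg, while that of the inhibitors was 254, 250 and 236. For each Socs3 count a library held 1.01 ± 0.0076, 0.350 ± 0.0083 and 0.134 ± 0.0040 Cish counts in LN Treg, tumor pTreg and tumor tTreg. The Cish to Socs2 ratio was 3.76 ± 0.056, 3.07 ± 0.212 and 1.32 ± 0.080. The Stat4 to Stat3 ratio was 0.299 ± 0.0081, 0.102 ± 0.0037 and 0.0180 ± 0.0019. In each of these ratios the 3 groups were apart and tumor pTreg lay in the middle.

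**Figure D4:**
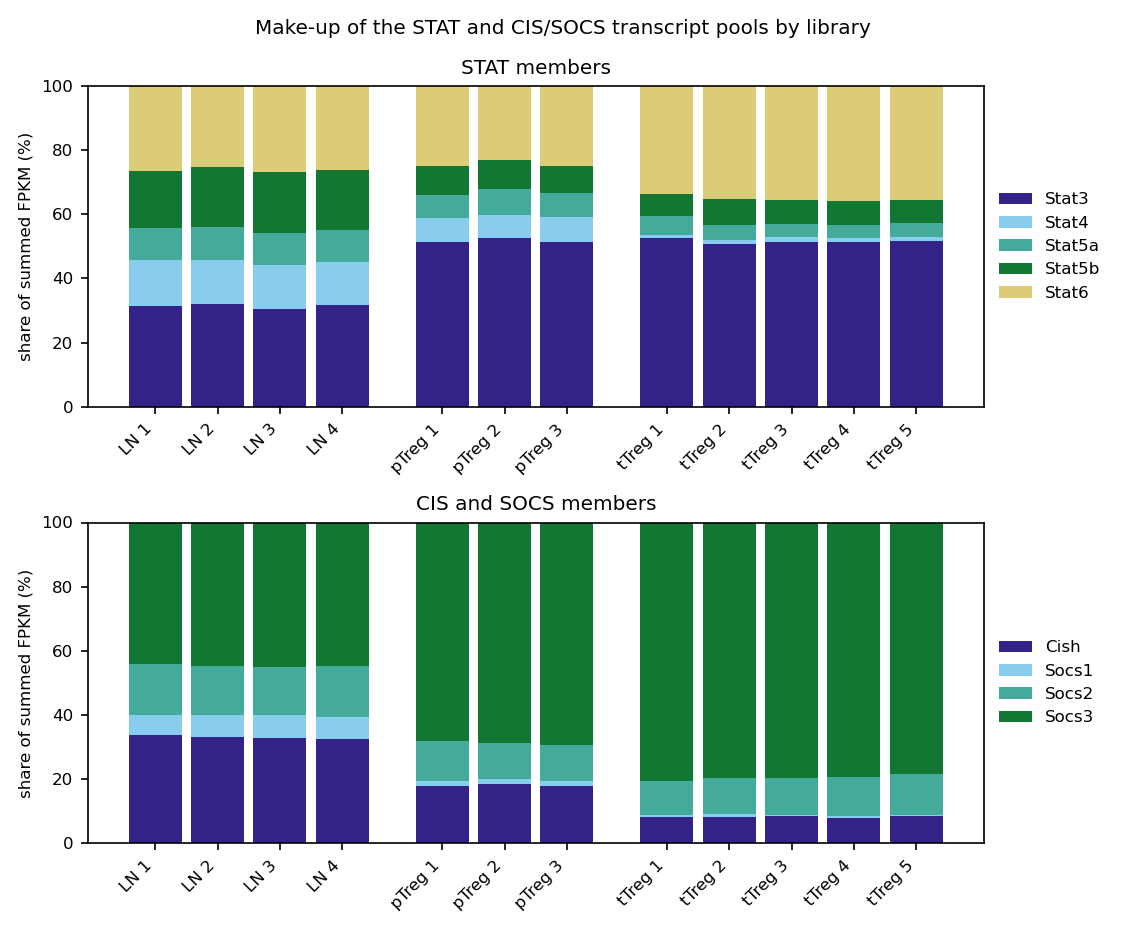
Share of each gene (%) in the summed FPKM of the 5 STAT genes (top) and of the 4 CIS and SOCS genes (bottom), 1 bar per library. Stat3 and Stat6 fill most of the STAT bars in tumor tTreg, and Socs3 grows from 44.7% in LN Treg to 79.5% in tumor tTreg.

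The other genes of the pathway were read from the same fit, TMM unless stated. Their counts stand beside the shares of all genes: between the tumor groups 26.8% were called higher in tumor pTreg and 25.3% lower, and 97.1% lower with pan-T scaling. Against LN Treg 39.8% (tumor pTreg) and 42.3% (tumor tTreg) were called lower, and 91.3% and 96.8% higher with pan-T scaling. The kinases came first: all 4 JAK genes were called higher in tumor pTreg than in tumor tTreg (median log2 0.78) and lower in both tumor groups than in LN Treg, and each of these directions reversed with pan-T scaling. Jak3, which is restricted largely to blood cells and works with the common gamma chain, had the largest difference at 2.65-fold, with 327 ± 9.44, 103 ± 6.44 and 39.0 ± 0.275 CPM in LN Treg, tumor pTreg and tumor tTreg. Jak2 (1.83-fold), Jak1 (1.60-fold) and Tyk2 (1.47-fold) differed less. Of 6 further STAT and SOCS genes 2 were higher in tumor pTreg than in tumor tTreg, 2 lower and 2 not called, and of 9 other inhibitors 5 were higher and 4 not called. In these 2 lists the medians were small, 0.06 and 0.12, and with pan-T scaling all 15 genes were lower, as were 97.1% of all genes. Socs4 and Socs5, SOCS proteins with long amino-terminal parts, differed by log2 0.29 and -0.17, and the phosphatase Ptpn1 by 0.29.

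Among cytokine receptor chains (25 genes, 24 tested), 13 were higher in tumor pTreg than in tumor tTreg, 7 lower and 4 not called, with a median of log2 0.21 (52.1% of all genes were called). The chains with the smallest p were all of T cells: Il2rb, the signalling chain of the interleukin-2 receptor, was 8.61-fold higher, Il27ra 7.16-fold, Il21r 6.25-fold and Il7r 4.33-fold. Il2rb read 1276 ± 14.7, 313 ± 9.72 and 36.6 ± 1.23 CPM in LN Treg, tumor pTreg and tumor tTreg. With pan-T scaling these 4 chains were lower in tumor pTreg, Il2rb by log2 -0.24 and Il7r by -1.24, and 23 of the 24 chains were lower on that scale, beside 97.1% of all genes. Of the ligands (18 genes, 14 tested), 8 were higher in tumor pTreg, 3 lower and 3 not called, and with pan-T scaling 5 were higher and 9 lower. Of all genes, 26.8% were higher and 25.3% lower with TMM, and 97.1% were lower with pan-T scaling. The T cell cytokine Ifng read 13.8 ± 1.28, 103 ± 1.69 and 2.81 ± 0.534 CPM in LN Treg, tumor pTreg and tumor tTreg, and was higher in tumor pTreg than in tumor tTreg with both scalings (log2 5.19 with TMM and 1.85 with pan-T scaling). The CD8 T cell markers given above, of cells that were transferred too, were also higher in tumor pTreg than in tumor tTreg on both scales (32.8 against 1.10 CPM, 2.31 against 0.792 per 100 pan-T counts), and their part in the Ifng level was not tested. Il21, Il13 and Csf2 were read at 10.3, 7.21 and 11.01 CPM in tumor pTreg and at 0.0989, 0.0437 and 0.448 CPM in tumor tTreg. Per 100 pan-T counts they averaged 0.726, 0.509 and 0.777 in tumor pTreg and 0.0705, 0.0316 and 0.321 in tumor tTreg. Il2 had no counts in tumor tTreg and 1.03 ± 0.183 CPM in tumor pTreg. Foxp3- conventional CD4+ cells were transferred too, and their part in the levels of these cytokines was not tested.

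Genes that each STAT is known to drive were counted too. Of 7 genes of the STAT4 response, 6 were higher in tumor pTreg than in tumor tTreg and 1 was not called (median log2 3.41). With pan-T scaling 3 were higher, 3 lower and 1 not called. Beside them, 26.8% of all genes were higher and 25.3% lower with TMM, and 97.1% were lower with pan-T scaling. Tbx21, the transcription factor of type 1 helper cells, read 3.61 ± 0.191, 34.5 ± 1.19 and 1.78 ± 0.434 CPM in LN Treg, tumor pTreg and tumor tTreg, and was 19.4-fold higher in tumor pTreg than in tumor tTreg (log2 0.93 with pan-T scaling). The CD8 T cell markers stood in the same order between the tumor groups (Cd8a at 23.6 against 0.667 CPM), and their part in the Tbx21 level was not tested. Il18rap and Il18r1, both chains of the interleukin-18 receptor, were 10.7-fold and 8.51-fold higher with TMM and differed by log2 0.06 (adjusted p = 0.309, edgeR) and -0.26 with pan-T scaling. Stat4 itself, with -0.24, lay close to these receptor chains.

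Of 12 genes of the STAT5 response, 10 were higher in tumor pTreg than in tumor tTreg, 1 lower and 1 not called (median log2 0.94), where 26.8% of all genes were higher and 25.3% lower. With pan-T scaling all 12 were lower, as were 97.1% of all genes. Il2ra, the interleukin-2 receptor alpha chain, was 3.57-fold higher, Gzmb 5.08-fold and Tnfrsf9 3.19-fold, beside 1.86-fold for Stat5b and 2.42-fold for Cish. Against LN Treg, 8 of the 12 were lower in tumor pTreg and 4 higher, where 39.8% of all genes were lower and 47.6% higher. In tumor tTreg 9 were lower, 2 higher and 1 not called, where 42.3% of all genes were lower and 48.1% higher. With pan-T scaling 8 were higher in tumor pTreg than in LN Treg and 3 lower, where 91.3% of all genes were higher. In tumor tTreg 11 were higher than in LN Treg on that scale, where 96.8% of all genes were. Bcl2, which protects against cell death, was 12.5-fold lower in tumor pTreg than in LN Treg and 24.7-fold lower in tumor tTreg, but with pan-T scaling it was higher in tumor tTreg (log2 0.88) and lower in tumor pTreg (-1.48). Bcl2l1, its relative, was 3.85-fold higher in tumor pTreg than in LN Treg, and higher with pan-T scaling too.

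Of 11 genes of the STAT3 response, 4 were higher in tumor pTreg than in tumor tTreg, 5 lower and 2 not called, with a median of log2 -0.45, where 26.8% of all genes were higher and 25.3% lower. With pan-T scaling all 11 were lower, as were 97.1% of all genes. The list holds acute-phase genes of hepatocytes, and the fibrinogen chains Fgb and Fgg were among the lower, at 43.7 and 15.6 CPM in tumor pTreg and 80.4 and 27.6 CPM in tumor tTreg. Fgb is also 1 of the 10 hepatoma markers above. Junb and Il4ra were higher by 1.33-fold and 1.36-fold with TMM. Of 10 genes of the STAT6 response, 6 were higher in tumor pTreg than in tumor tTreg, 3 lower and 1 not called with TMM, and with pan-T scaling 9 were lower and 1 not called. Gata3, which STAT6 induces in T cells, was 7.54-fold higher with TMM, at 22.4 ± 0.843 against 2.99 ± 0.58 CPM, and differed by log2 -0.43 with pan-T scaling. Several genes that STAT6 induces in macrophages were abundant in both tumor groups and nearly lacking in LN Treg: Arg1 read 0.153, 228 and 165 CPM in LN Treg, tumor pTreg and tumor tTreg, and Mrc1 0.502, 581 and 508. The part of macrophage RNA in the STAT6 list was not tested.

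**Figure D5:**
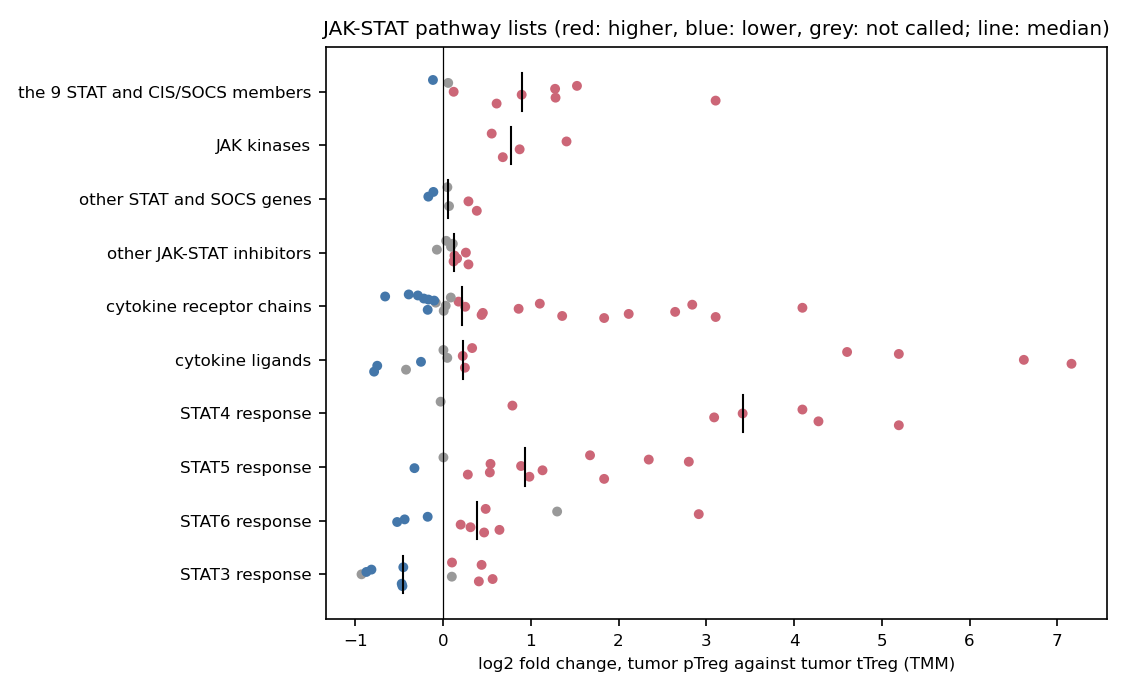
Log2 fold change with TMM in tumor pTreg against tumor tTreg for the 9 STAT and CIS/SOCS genes and for the pathway lists, 1 point per gene (red called higher, blue called lower, grey not called), with a line at the median of the points. Il2, which had no counts in tumor tTreg, is not drawn. The STAT4 response has the highest median (3.41) and the STAT3 response the lowest (-0.45).

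For each of the 9 genes the closest patterns were sought by Pearson's r of log2(CPM + 1) over the 12 libraries, among 10488 genes. The 12 points fall into 3 groups and share the T cell content of their libraries, so these values describe how alike the 3 group levels are and no more. Stat4 was closest to Cd6 (r = 0.9995), Cd3g and Il2rb, genes of the T cell surface that read 455, 406 and 1276 CPM in LN Treg. Stat5b was closest to Tnfrsf25, Nup210 and Il2ra, and Stat5a to Il27ra, Esyt1 and Ubash3a. Cish was closest to Lat, H2-Q7 and Traf1, and Socs1 to Tnip1, Nt5e and Fam102a. Stat3 was closest to Jak2 (r = 0.998), a kinase of many cytokine receptors, which read 243, 195 and 107 CPM in LN Treg, tumor pTreg and tumor tTreg, then to Lax1 and Il18r1. Stat6 was closest to Bicdl1, Ldb1 and E4f1, and Socs2 to Ube2q1, Klhl20 and Ifit1. Socs3, alone in being lowest in LN Treg, was closest to Cdc42ep4 (r = 0.998), Phlda1 and Dpp7, and Phlda1 read 35.7, 256 and 336 CPM in LN Treg, tumor pTreg and tumor tTreg. With a pseudocount of 0.1 in place of 1, between 1 and 3 of the 3 closest genes were the same for every one of the 9.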

How the data were processed

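Bulk RNA sequencing of total RNA (TRIzol, BGISEQ-500, per the labels' protocols) gave 12 libraries. The authors deposited expected counts from RSEM and a second table in FPKM, each of 55413 genes. Per the submitters' processing notes, STAR 2.7.11a, RSEM 1.3.3, DESeq2 and the build GRCm38 (mm10) were used; the gene annotation was not given in the sources used here. Expected counts were whole numbers as deposited, and a count in FPKM is divided by transcript length and library size.

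Genes were filtered with filterByExpr by group, leaving 15705 of 27279 with any count, and tested with the quasi-likelihood F test of edgeR 4.0.16 in R 4.3.3 with TMM factors, in 1 model of all 12 libraries whose sole term was group. P-values were adjusted by Benjamini-Hochberg over all genes of a comparison, and genes were called at an adjusted p below 0.05. The script was checked on simulated data. Depth of 14.57 to 18.51 M counts gave each of the 9 genes at least 53 counts in every library. Alternatives were RLE factors, library totals, scaling to 18 pan-T or 4 CD3 genes, no filter, a mean of at least 5 CPM, DESeq2 1.42.0, limma 3.58.1 on log2(FPKM + 1), on log2(FPKM + 0.1) and with a mean FPKM of at least 1, the compared groups only, a block on replicate number, and a fit without each library (also with pan-T scaling, added after seeing the data). Within groups, no 2 libraries were as alike as counting alone would make them (chi-square 1.62 to 3.74 per degree of freedom). Separate preparations of the same RNA could differ so too, so this cannot show that they came from separate mice. Each library was counted as 1 replicate.

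The 9 genes, the lists and the pan-T scaling were chosen with earlier results of these data known. Beyond the 9 genes, the text names genes by a rule: up to 4 called members of each list with the smallest p in a comparison, the markers with the highest level, and the 3 genes closest to each of the 9 by Pearson's r among those with a mean of at least 5 CPM. Genes whose groups held almost no counts are given as levels in place of folds. Some genes named by this rule are left out of the text. Positions are from GENCODE vM21 (GRCm38), promoter windows from RefSeq (GRCm38.p6).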

Additional observations from a re-analysis of the deposited data

Results flagged for a closer look

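Libraries of LN Treg and tumor tTreg were searched for single values far from the rest of their group on 3 scales (9 genes, 54 groups of values). Chance alone flags about 1 in 20 of such groups, and 4 of 54 were found, not far above that. They concern Stat4 and Cish alone, each on scales drawn from the same reads, so they are not 4 separate results. All 4 belong to tumor tTreg replicate 4. Its Stat4 level was 5.09 CPM, the highest of the 5 libraries, with a gap to the next equal to 0.712 of the group's range (limit 0.71). Per 100 pan-T counts its Stat4 value was 3.57, again the highest (0.786 of the range). Its Cish value was the lowest on both of the other scales, at 38.1 per 100 pan-T counts (0.723 of the range) and 18.3 FPKM (0.767 of the range). With TMM and with pan-T scaling, no edgeR call for Stat4 or Cish changed without this library. The pan-T scaled difference of Stat4 between the tumor groups was then log2 -0.19 (edgeR adjusted p = 0.0417), against -0.24 (0.00516) with it.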

How the results depend on the processing

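Scaling decided directions. With pan-T scaling and with CD3 scaling (log2, in that order), tumor pTreg against tumor tTreg gave -2.74 and -2.96 for Stat3, -0.24 and -0.45 for Stat4, -2.07 and -2.28 for Stat5a, -2.46 and -2.67 for Stat5b, -3.23 and -3.44 for Stat6, -2.07 and -2.29 for Cish, -1.82 and -2.03 for Socs1, and -3.29 and -3.50 for Socs2. Tumor pTreg against LN Treg gave 2.07 and 2.11 for Stat3, 0.52 and 0.55 for Stat4, 1.06 and 1.10 for Stat5a, 0.57 and 0.61 for Stat5b, 1.56 and 1.60 for Stat6, 1.39 and 1.43 for Cish, 0.20 and 0.24 for Socs1, and 1.68 and 1.72 for Socs2. Tumor tTreg against LN Treg gave 4.81 and 5.06 for Stat3, 0.76 and 1.00 for Stat4, 3.13 and 3.38 for Stat5a, 3.03 and 3.28 for Stat5b, 4.79 and 5.04 for Stat6, 3.46 and 3.71 for Cish, 2.02 and 2.27 for Socs1, and 4.97 and 5.22 for Socs2. All of these reverse the TMM direction, which Socs3 kept in all 3 comparisons. Genes called between the tumor groups numbered 8184 with TMM, 15332 with pan-T and 15366 with CD3 scaling.

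Outside these scalings, 3 of 486 values reversed, all for Stat3 in tumor pTreg against LN Treg with limma on FPKM (0.0758, 0.0763 and 0.0758 on log2(FPKM + 1), on log2(FPKM + 0.1) and with a mean FPKM of at least 1, adjusted p 0.0897 to 0.0921); the cause was not tested. No other call changed with these alternatives. With each library left out in turn, 7151 to 8130 genes were called between the tumor groups, 13506 to 13681 for tumor pTreg against LN Treg and 13971 to 14104 for tumor tTreg against LN Treg. Same-numbered libraries showed no shared deviation from their group means (r of -0.0788 to 0.0763). This cannot tell whether they came from the same mice, which the sources used here do not give. With the replicate block the calls numbered 7059, 13052 and 13637, against 8184, 13735 and 14187 without it, and no call of the 9 genes changed. With pan-T scaling and each library left out (chosen after seeing the data), 3 of 216 values changed call, all for Socs1 in tumor pTreg against LN Treg, given beside its level. Shares of CPM in place of FPKM moved 24 of 27 group means by more than 1 SD and reversed the Stat6 difference between LN Treg (26.3% by FPKM, 22.8% by CPM) and tumor pTreg (24.2% and 24.5%).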
